A study of Mus musculus with 49 samples.

Results

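The genes described here encode subunits of the ionotropic glutamate receptors of the AMPA and NMDA classes. The 10 genes, Gria1, Gria2, Gria3, Gria4, Grin1, Grin2a, Grin2b, Grin2c, Grin2d and Grin3a, were taken by symbol from a table of 24495 genes measured in mouse frontal cortex. All were found, and all 10 passed the filter on low reads in every comparison. Between 229 reads (Grin2d) and 54028 reads (Gria2) lay behind a member's value in a single library.

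AMPA receptors are glutamate-gated channels that carry the fast excitatory current at most synapses of the forebrain, and they assemble as tetramers of the subunits GluA1 to GluA4, which the Gria genes encode. NMDA receptors need glutamate and a co-agonist, glycine or D-serine, and they pass calcium once depolarisation has lifted a magnesium block, so that they couple synaptic activity to lasting changes in synaptic strength. Every NMDA receptor holds the obligatory subunit GluN1, from Grin1, together with GluN2 subunits, from Grin2a to Grin2d, or GluN3 subunits.

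Poly(A) RNA of the frontal cortex was sequenced in 49 libraries from 5 groups of mice fed a high fat diet. CreTM (10 libraries) and CreVE (10 libraries) came from mice conditional for a human amylin transgene, on the diet for 4 months, that had been injected with tamoxifen (CreTM) or vehicle (CreVE), with the brain taken 2 months after injection. 4MHFA (10 libraries) came from mice labelled AKO, an amylin knockout, and 4MHFW (10 libraries) from WT mice, both on the diet for 4 months. 2MHF (9 libraries) came from WT mice on the diet for 2 months. Every group was on the high fat diet, and no group on a normal diet was analysed here. Amylin is a hormone secreted by the beta cells of the pancreas along with insulin. The labels give neither the promoter of the transgene, nor the driver of Cre, nor sex, strain or age, and nothing states that libraries came from separate animals, so a p-value here measures only how these libraries scatter.

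Levels are given as log2(normalised reads + 1), the scale of the deposited table, and each difference between groups is a log2 difference, given with its standard error (SE). Libraries held 29.17 M to 75.65 M recovered reads (M, 1e+06), with a median of 42.02 M. Mouse Iapp, the amylin gene, had 36 to 116 reads in each of the 10 libraries labelled AKO, against 0 reads over the 10 CreTM, the 10 4MHFW and the 9 2MHF libraries and 1 read over the 10 CreVE libraries. The reads thus go against a plain reading of the label, and whether they come from a part that a knockout allele keeps was not tested, so these are called the libraries labelled AKO. The cortical label was checked with 8 markers of excitatory cortical neurons, among them Neurod6, Tbr1, Emx1 and Cux2, none of which was at 0 in a whole group. On the mean z-score of these markers, CreTM 9 was at -3.64, CreVE 3 at -3.22 and CreVE 1 at -1.29, the 3 lowest of 49 libraries, and CreVE 3 and CreVE 1 had the highest olfactory bulb marker levels, 2.27 and 1.97. The level of 355 genes with an annotated transcript of at least 10 kb, members left out, was lowest in 2MHF 37 (-0.51) and 4MHFA 6 (-0.41). These 5 libraries stood apart from the rest, and differences that rest on them are given with and without them.

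Read counts grow with transcript length, so levels of different members were compared only per kilobase. On normalised reads per kb of the longest annotated transcript, Grin1 (GluN1; gene ID 14810; chr2:25291181-25319187, minus strand, GRCm38) was highest under this length, at 5081 ± 564 (SD, n = 49), followed by Gria1 (GluA1; chr11:57011387-57330244, plus strand) at 3791 ± 426. Gria2 (GluA2, the subunit whose edited form makes the channel nearly impermeable to calcium; chr3:80681450-80802835, minus strand) was at 2860 ± 223 per kb and Gria3 (GluA3; chrX:41400854-41678601, plus strand) at 2557 ± 385 per kb, so that the ranges of these neighbours overlapped. Gria4 (GluA4, known from fast-spiking interneurons; chr9:4417896-4796234, minus strand) was at 925 ± 106 per kb. The order of the highest members depended on the length used. Per kb of merged exons Gria1 (3480 ± 391) lay above Grin1 (2240 ± 249), and per kb of coding sequence Gria2 (11200 ± 872) lay above Gria1 (7728 ± 869) and Grin1 (7552 ± 838). The levels of the other NMDA receptor genes per kb were lower than that of Grin1, each in all 49 libraries and under all 3 lengths. Grin2c (GluN2C, best known from cerebellar granule cells; chr11:115249169-115267243, minus strand) was at 536 ± 65.1 per kb and Grin3a (GluN3A, a subunit that lowers calcium flow through the receptor; chr4:49661611-49845744, minus strand) at 280 ± 31.4 per kb. Grin2b (GluN2B; chr6:135713233-136173511, minus strand), Grin2d (GluN2D, with slow deactivation; chr7:45831883-45878378, minus strand) and Grin2a (GluN2A; chr16:9567898-9995560, minus strand) followed at 88.9 ± 20.0, 78.4 ± 18.8 and 74.9 ± 19.7 per kb of the longest transcript, differences smaller than their spread between libraries. Per kb of coding sequence the same 3 genes lay further apart and in another order, with Grin2b at 481 ± 108, Grin2a at 250 ± 65.6 and Grin2d at 107 ± 25.8.

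The shares of the subunits within their families depended on the length that reads were divided by, and the sources used here do not say which transcripts were counted. Among the 4 AMPA receptor genes, Gria1 had 37.5% and Gria2 28.2% of the family's reads per kb of the longest transcript, 46.1% and 25.3% per kb of merged exons, and 30.0% and 43.4% per kb of coding sequence, so their order was turned round by the coding length. Gria4 was lowest under all 3 lengths, with 9.14%, 10.6% and 7.23%. Among the 4 GluN2 genes, Grin2c was highest by mean share under all 3 lengths, with 68.8%, 71.1% and 46.1%. Per kb of coding sequence this did not hold in every library, as Grin2b lay above Grin2c in 2MHF 39, 4MHFA 12 and CreTM 33. The coding length moved Grin2b to 30.9%, against 11.5% per kb of the longest transcript, which is 24.06 kb long in the annotation. Cerebellar granule cell and Purkinje cell markers (Gabra6, Cbln3 and Pcp2) summed to 3.33 to 65.3 normalised reads per library over the 5 groups, and Gabra6 was at 0 in all 2MHF libraries. Grin2c had a correlation near 0 with them (rho = -0.0695 over 49 libraries, adjusted permutation p = 0.784). Only 1 of the 3 markers passed the filter on low reads, so this level lay near the floor and the correlation decides nothing. A cerebellar part in Grin2c was not tested.

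**Figure D1:**
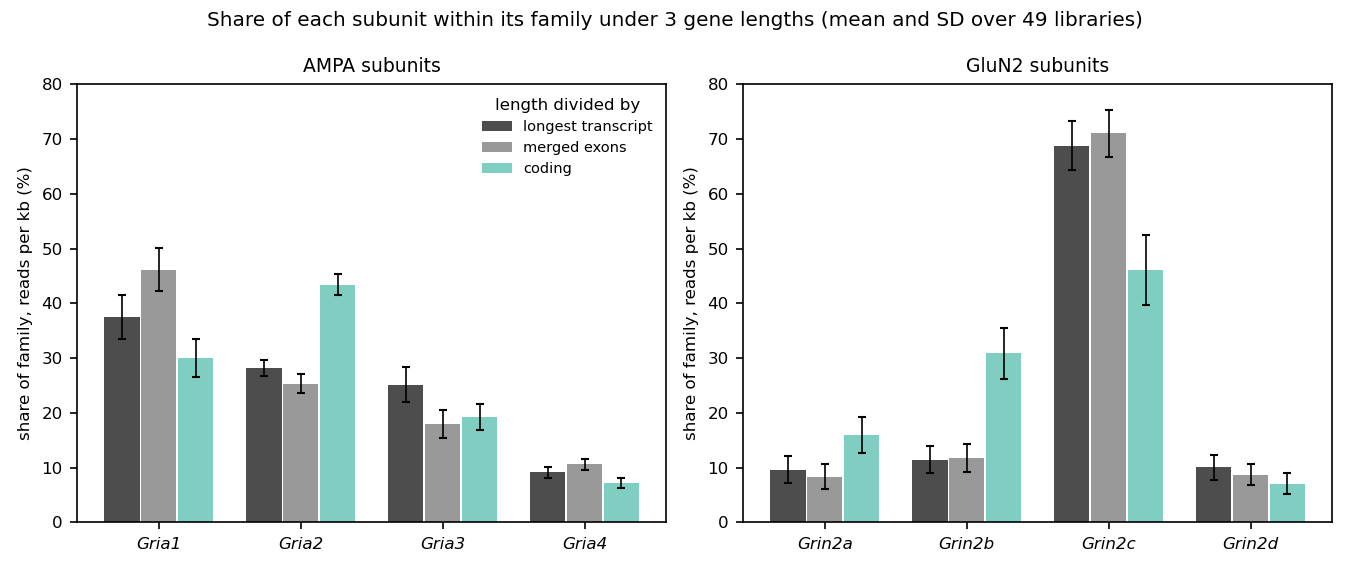
Share of each gene in the reads per kb of its family (%), AMPA receptor genes on the left and GluN2 genes on the right, for 3 choices of gene length; bars are means over 49 libraries and lines the SD. Grin2c is the highest GluN2 bar under all 3 lengths, while Gria1 and Gria2 change order with the coding length.

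Whether any of the 5 group means differed was asked for each gene with a moderated F test over all 49 libraries (limma, Benjamini-Hochberg adjustment over 15854 genes). Of the 10 members, 2 passed, Grin1 (adjusted p = 0.0117) and Grin2d (adjusted p = 0.00276), where 23.2% of all genes tested passed, so the members' share lay near that of all genes. Grin2c and Grin3a had adjusted p = 0.117 each, and the other 6 had adjusted p between 0.358 and 0.787. Without the 3 libraries lowest in excitatory cortical neuron markers, Gria3 and Grin3a passed as well, for a count of 4. The count of all genes that passed rose too, from 3673 to 5820, so the gain was not particular to the members.

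Grin1 had a lowest, median and highest level of 14.07, 14.51 and 14.55 in CreTM, 14.10, 14.42 and 14.62 in CreVE, 14.09, 14.29 and 14.43 in the libraries labelled AKO, 14.21, 14.39 and 14.48 in 4MHFW and 14.29, 14.50 and 14.81 in 2MHF. The libraries labelled AKO were the lowest group by mean and 2MHF the highest, with overlap between all groups. Grin2d had 8.62, 8.91 and 9.58 in CreTM, 8.48, 8.79 and 9.37 in CreVE, 8.24, 8.57 and 8.90 in the libraries labelled AKO, 8.19, 8.51 and 8.91 in 4MHFW and 8.0, 8.63 and 8.79 in 2MHF. Both groups conditional for the transgene, which are also the groups labelled as injected, were higher by median than the other 3 groups, again with overlap. The 250 bases before the RefSeq start of these genes (GRCm38.p6, both on the minus strand) are shown because Grin1 and Grin2d were the members that passed the F test. Grin1 covers chr2:25319188-25319437 and Grin2d chr7:45866682-45866931, the Grin2d start lying inside the GENCODE span of that gene. They were searched on both strands for the cAMP response element core TGACG and the GC box GGGCGG, which do not overlap each other, and capitals mark the matches.
Grin1: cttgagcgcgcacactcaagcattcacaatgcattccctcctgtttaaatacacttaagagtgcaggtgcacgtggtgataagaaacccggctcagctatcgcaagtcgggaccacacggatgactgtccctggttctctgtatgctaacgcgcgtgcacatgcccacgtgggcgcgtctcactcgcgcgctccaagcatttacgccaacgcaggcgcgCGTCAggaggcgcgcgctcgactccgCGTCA
Grin2d: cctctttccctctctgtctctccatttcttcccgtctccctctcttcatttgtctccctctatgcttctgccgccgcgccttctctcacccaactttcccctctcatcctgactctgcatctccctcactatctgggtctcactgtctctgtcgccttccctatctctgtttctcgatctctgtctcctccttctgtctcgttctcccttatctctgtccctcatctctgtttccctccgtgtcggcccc
The Grin1 stretch held 2 matches to the cAMP response element core, both on the reverse strand as CGTCA, and no GC box, and the Grin2d stretch held neither motif. Of the same 250 bases before 32851 mouse starts, 17.8% held TGACG and 32.7% held GGGCGG on either strand, and a match is only a description of the letters.

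**Figure D2:**
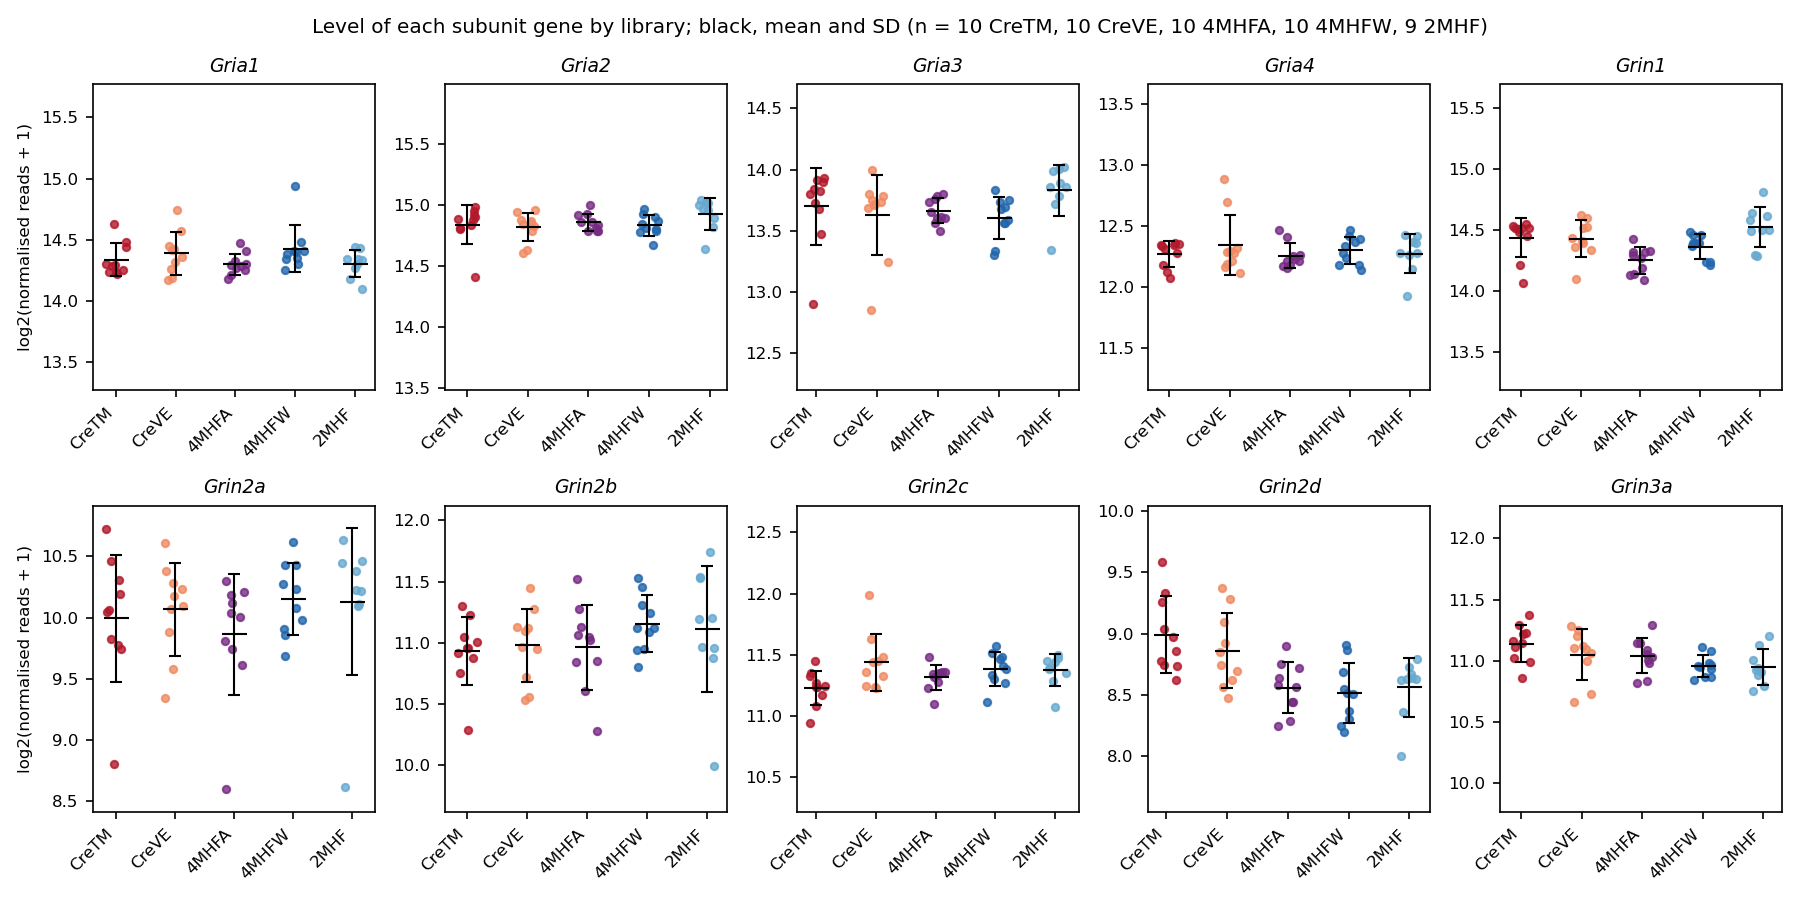
Level of each of the 10 genes, log2(normalised reads + 1), in every library by group (n = 10 CreTM, 10 CreVE, 10 4MHFA, 10 4MHFW and 9 2MHF); points are libraries, black lines the mean and SD, and every panel spans the same height. Grin2d has mean levels of 8.99 in CreTM and 8.86 in CreVE, against 8.51 in 4MHFW, and single low libraries stand out for Gria3, Grin2a and Grin2b.

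The comparison of CreTM with CreVE asks what tamoxifen, the inducer of the transgene, was followed by in mice of the same kind. None of the 10 members passed (limma, adjusted p 0.05; 0% of 15224 genes tested passed), and limma-voom also called 0. At an unadjusted p under 0.05, 1 of the 10 members and 502 of all genes were found. That member was Grin2c, with a lowest, median and highest level of 10.94, 11.24 and 11.45 in CreTM, against 11.23, 11.40 and 11.99 in CreVE. The Grin2c difference was -0.21 (SE 0.08, 95% interval -0.38 to -0.04, limma adjusted p = 0.9998), with 1 of 10 CreTM libraries above the CreVE median. The difference was -0.13 without CreTM 9, CreVE 1 and CreVE 3, and Grin2c is the member that followed the olfactory bulb markers most closely, as described further on. All 6 of those markers had a lower mean in CreTM than in CreVE (median difference -0.59), and 0 of 6 passed by limma. A fit with olfactory bulb and striatum marker levels as covariates was run, but its Grin2c difference is not reported here. The part of bulb tissue in the Grin2c difference is thus not given. For the other 9 members the 95% intervals all covered 0, and they ran from -0.11 to 0.15 for Gria2 and from -0.47 to 0.32 for Grin2a, the narrowest and the widest. The median difference was -0.02 over the 10 members and -0.001 over all genes.

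CreTM and CreVE were each set against 4MHFW, which asks how the injected mice with the conditional transgene differed from WT mice after the same time on the diet. The labels give no injection for 4MHFW, so the transgene, Cre and the injection itself cannot be told apart here. The 2 comparisons share the 4MHFW libraries and are given side by side. In CreTM, 2 of 10 members passed, both higher than in 4MHFW, where 13.1% of 15237 genes tested passed in either direction. In CreVE, 0 of 10 members passed by limma or limma-voom, with 1 at an unadjusted p under 0.05 (3196 of all genes), where 6.17% of 15207 genes passed. The median difference over the members was -0.013 in CreTM and 0.033 in CreVE, against -0.0033 and -0.0004 over all genes.

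Grin2d rose by 0.48 in CreTM (SE 0.12, 95% interval 0.23 to 0.72, limma adjusted p = 0.0102), with means of 8.99 ± 0.31 in CreTM and 8.51 ± 0.25 in 4MHFW (SD, n = 10 each). All 10 CreTM libraries lay above the 4MHFW median and no 4MHFW library above the CreTM median, although the ranges overlapped. In CreVE, Grin2d was at 8.86 ± 0.30, a difference of 0.35 from 4MHFW (SE 0.12, limma adjusted p = 0.0851), with 9 of 10 CreVE libraries above the 4MHFW median. The direct difference between CreTM and CreVE was 0.13 (95% interval -0.14 to 0.40). Without CreTM 9, CreVE 1 and CreVE 3, the Grin2d difference from 4MHFW was 0.41 in CreTM (adjusted p = 0.0082) and 0.23 in CreVE (adjusted p = 0.115). Grin3a rose by 0.18 in CreTM (SE 0.05, 95% interval 0.07 to 0.29, limma adjusted p = 0.0277). It had a lowest, median and highest level of 10.86, 11.15 and 11.37 in CreTM, against 10.84, 10.95 and 11.11 in 4MHFW, with 9 of 10 CreTM libraries above the 4MHFW median. The highest value was that of CreTM 9, the highest of all 49 libraries, and the size of the CreTM difference without it is not reported here. In CreVE the Grin3a levels were 10.66, 11.10 and 11.29, a difference of 0.09 (SE 0.07, adjusted p = 0.466), which became 0.18 (adjusted p = 0.00675) without the 3 libraries low in excitatory neuron markers.

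The remaining members did not pass against 4MHFW. Grin2c was at a mean of 11.23 in CreTM and 11.38 in 4MHFW (difference -0.15, limma adjusted p = 0.0901), while CreVE was at 11.44. Grin2b was at 10.93 in CreTM and 10.98 in CreVE, against 11.16 in 4MHFW (differences -0.22 and -0.18, adjusted p = 0.186 and 0.402). Gria2 differed least, by 0.0032 in CreTM and by -0.014 in CreVE. Other cell types moved with these comparisons. All 8 myelinating oligodendrocyte markers were lower in both transgenic groups, with a median difference of -0.43 in CreTM and -0.63 in CreVE and none at 0. Their summed level ran from 85657 to 171290 normalised reads in CreTM and from 80571 to 181600 in CreVE, against 157610 to 192140 in 4MHFW. Within groups, Grin2d and Grin3a were not related to these markers past the threshold (r = -0.28 and 0.27, adjusted permutation p = 0.183 and 0.242), and the part of myelin in the rises was not tested. Inhibitory interneuron markers were also lower by median difference, by -0.17 in CreTM and -0.15 in CreVE, although 0 of 8 passed by limma in either, with 1 of 8 in each at an unadjusted p under 0.05. Their summed level ran from 48771 to 92919 normalised reads in CreTM and from 48721 to 111640 in CreVE, against 56174 to 75096 in 4MHFW, with none at 0. Grin2d ran against the mean z-score of these markers within groups (r = -0.387, rho = -0.384, adjusted permutation p = 0.0371 and 0.0399). The sign was the same in all 5 groups, with r from -0.623 in CreVE to -0.0274 in 4MHFW. Grin2d had r = -0.301 without CreVE 3 and 4MHFW 24, the 2 libraries farthest from the median. The summed level and the mean z-score did not rank libraries alike. CreVE 3 had the lowest z-score of all 49 libraries (-1.08) but the highest sum of CreVE (111640), and the highest Grin2d of CreVE (9.37). CreTM 9 had the highest sum (92919) and the highest Grin2d (9.58) of CreTM. The relation was computed for the z-score only and not for the summed level, and the part of interneurons in the higher Grin2d was not tested. All 8 striatal markers had lower means in both transgenic groups (median difference -0.81 in CreTM and -0.89 in CreVE). So did all 6 olfactory bulb markers (-0.92 and -0.46), and none of either list passed by limma. Within groups Grin2d and Grin3a had r = -0.305 and 0.303 with the striatal markers (adjusted permutation p = 0.138 and 0.15). A fit with both levels as covariates is given below, and the part of these regions in the rises was not tested beyond it. In bulk tissue, fewer cells of a type and less RNA per cell cannot be told apart.

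The 4MHFW libraries are numbered 11 to 15 and 21 to 25 in their titles, and against either set of 5 alone neither rise passed. The Grin2d difference was then 0.47 (adjusted p = 0.0866) and 0.49 (adjusted p = 0.0536), and that of Grin3a 0.17 (adjusted p = 0.181) and 0.20 (adjusted p = 0.103). Grin3a also lost its call without CreTM 27 (adjusted p = 0.0529) or 4MHFW 25 (adjusted p = 0.0505), and Grin2c gained one without CreTM 16 (adjusted p = 0.0493) or 4MHFW 14 (adjusted p = 0.0343). With the olfactory bulb and striatum marker levels as covariates, Grin2a (-0.46, adjusted p = 0.0458) and Grin2b (-0.36, adjusted p = 0.0182) were called lower in CreTM than in 4MHFW, beside the rises of Grin2d (0.67, adjusted p = 6.2e-05) and Grin3a (0.26, adjusted p = 0.0018). The share of all genes called under these covariates is not reported here, so these calls are not set against a background.

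**Figure D3:**
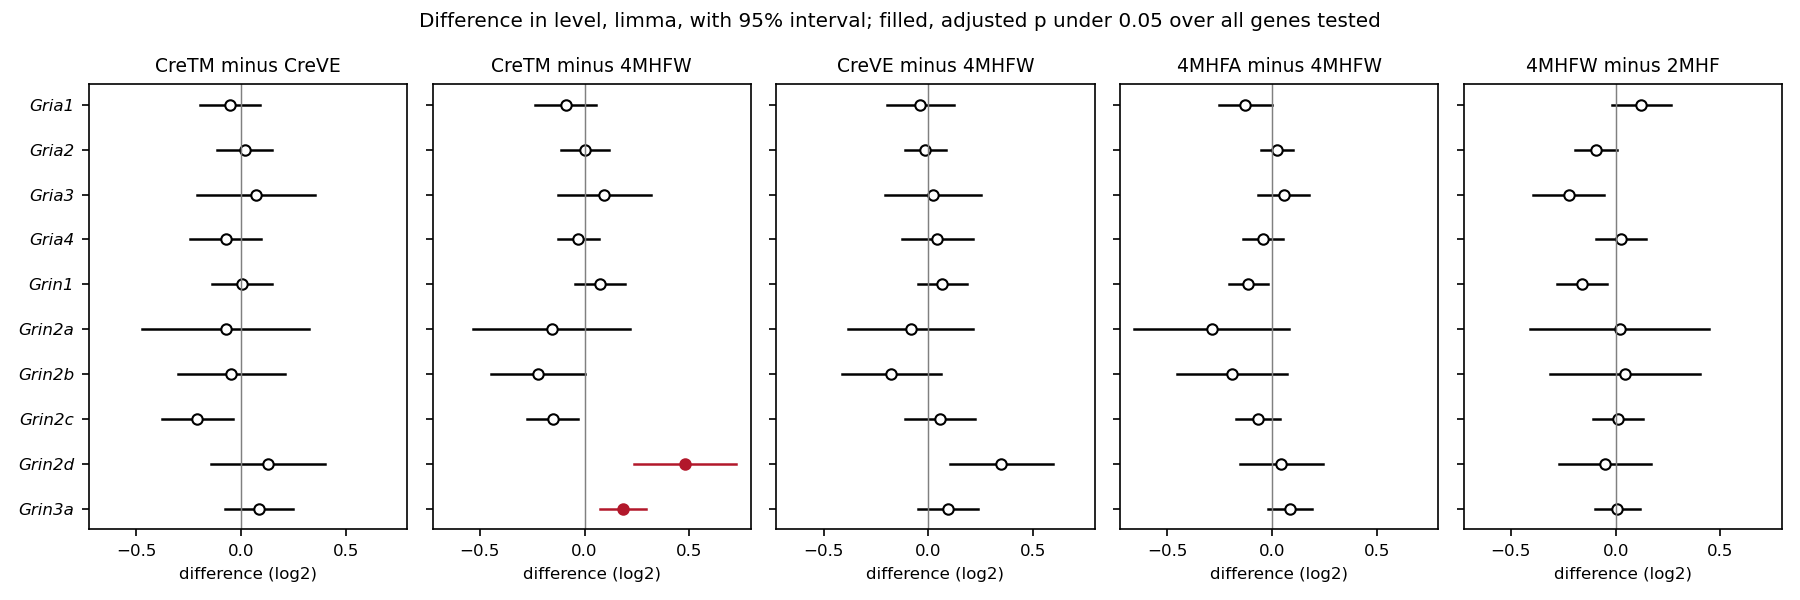
Difference in level (log2) for each of the 10 genes in the 5 comparisons, with its 95% interval from limma; filled red points passed an adjusted p of 0.05 over all genes tested. The filled points are Grin2d (0.48) and Grin3a (0.18) in CreTM minus 4MHFW.

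The libraries labelled AKO were set against 4MHFW to ask how libraries with that label differ from WT at 4 months on the diet. Given their Iapp reads, the comparison is not read as one of loss of amylin. None of the 10 members passed by limma or limma-voom, where 0.786% of 15269 genes tested passed, and 2 members and 2131 of all genes had an unadjusted p under 0.05. Grin1 was at a mean of 14.25 ± 0.11 in the libraries labelled AKO and 14.36 ± 0.10 in 4MHFW (difference -0.11, SE 0.04, limma adjusted p = 0.260), with 1 of 10 labelled AKO above the 4MHFW median. Gria1 had a lowest, median and highest level of 14.18, 14.29 and 14.48 in the libraries labelled AKO, against 14.25, 14.39 and 14.94 in 4MHFW (difference -0.13, SE 0.06, limma adjusted p = 0.356). The highest 4MHFW value was that of library 13, and without it the Gria1 difference was -0.07. The largest difference in size was that of Grin2a, at a mean of 9.86 ± 0.50 in the libraries labelled AKO and 10.15 ± 0.30 in 4MHFW (-0.29, 95% interval -0.66 to 0.08). It rested in good part on 4MHFA 6, at 8.60 where the others lay between 9.61 and 10.30, and was -0.15 without that library (limma adjusted p = 0.628). The median difference was -0.056 over the members and 0.0053 over all genes. All 8 immediate early genes, which neuronal activity induces, were called lower (median difference -1.20), with summed levels of 12052 to 22913 normalised reads in the libraries labelled AKO against 27975 to 53407 in 4MHFW and none at 0. Within groups, Gria1 and Grin1 were not related to their level past the threshold (r = 0.155 and 0.181, adjusted permutation p = 0.467 and 0.416), and the part of these genes in the differences was not tested.

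The comparison of 4MHFW with 2MHF asks what differs after 4 months against 2 months of the diet, and ages are not given. None of the 10 members passed by limma or limma-voom, where 8.69% of 15234 genes tested passed, and 2 members and 4148 of all genes had an unadjusted p under 0.05. Gria3 had a lowest, median and highest level of 13.31, 13.63 and 13.83 in 4MHFW, against 13.35, 13.86 and 14.03 in 2MHF, and no 4MHFW library lay above the 2MHF median. Its difference was -0.22 (SE 0.08, 95% interval -0.39 to -0.06, limma adjusted p = 0.0809). Grin1 was at 14.36 ± 0.10 in 4MHFW (n = 10) and 14.52 ± 0.17 in 2MHF (SD, n = 9), a difference of -0.16 (SE 0.06, adjusted p = 0.0809), and again no 4MHFW library lay above the 2MHF median. The median difference was 0.0096 over the members and 0.0034 over all genes.

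The calls of this comparison depended on library 2MHF 37, the lowest of its group in Gria3, Grin2a and Grin2b and the lowest of all 49 in long-transcript level. Without it, 3 members passed as lower in 4MHFW: Gria3 (-0.29, adjusted p = 0.0059), Grin1 (-0.19, adjusted p = 0.0199) and Gria2 (-0.13, adjusted p = 0.0223). In that fit 2847 of 15278 genes tested passed in either direction, against 1324 of 15234 with all libraries. Without 2MHF 40, Grin1 passed alone (-0.19, adjusted p = 0.0401). With all libraries, each of the 8 excitatory cortical neuron markers had a lower mean in 4MHFW, by a median difference of -0.30, and 1 of 8 passed. None was at 0, with summed levels of 16125 to 22967 normalised reads in 4MHFW against 17367 to 27523 in 2MHF. Each of these 3 members followed those markers between libraries of a group, as given further on. Non-neuronal markers moved the other way, with a median difference of 0.10 for 8 astrocyte markers (5 higher by mean, 3 passed), 0.20 for 6 microglia markers (all higher, 4 passed) and 0.24 for 5 endothelial markers (all higher, 1 passed). The astrocyte markers summed to 60858 to 71646 normalised reads in 4MHFW and 58750 to 64798 in 2MHF, the microglia markers to 15359 to 17758 in 4MHFW and 14153 to 16913 in 2MHF, and the endothelial markers to 7963 to 9457 in 4MHFW and 6846 to 8204 in 2MHF, with none at 0. Within groups Gria2, Gria3 and Grin1 ran against the astrocyte markers (r = -0.629, -0.598 and -0.562, adjusted permutation p = 0.000108, 0.000108 and 0.00052), with the same sign in all 5 groups and r = -0.557, -0.512 and -0.478 without CreTM 9 and CreTM 15. With microglia and endothelial markers none of the 3 passed (adjusted permutation p = 0.317 to 0.918 and 0.0658 to 0.389). Markers of other regions were higher in 4MHFW by mean, all 6 of the olfactory bulb (median difference 1.04) and all 8 of the striatum (0.51). None of them passed by limma. Within groups Gria3 and Gria2 ran against the bulb markers (r = -0.579 and -0.538, adjusted permutation p = 0.00052 and 0.000841). Grin1 did not pass with them (r = -0.298, adjusted permutation p = 0.141). The part of these cell types and regions in the lower Gria3, Grin1 and Gria2 was not tested. Values with bulb and striatum covariates are not reported here.

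Much of the variation of the members lay within groups. The within-group SD was 0.47 for Grin2a, 0.34 for Grin2b, 0.27 for Grin2d and 0.24 for Gria3, where the median SD of genes at a like level was 0.13, 0.11, 0.18 and 0.12. The other 6 members had SDs of 0.12 to 0.16, against medians of 0.11 to 0.12. Grin2a spanned 8.80 to 10.72 in CreTM, 9.35 to 10.61 in CreVE, 8.60 to 10.30 in the libraries labelled AKO, 9.69 to 10.62 in 4MHFW and 8.61 to 10.64 in 2MHF.

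With the group means removed, members were compared over the 49 libraries, in 45 pairs, as a description. The libraries share their normalisation, so such correlations are not independent of each other. Grin2a and Grin2b moved most closely together (r = 0.896, and 0.866 to 0.939 within the 5 groups), and the level of Grin2a minus that of Grin2b had an SD of 0.28 in CreTM, 0.18 in CreVE, 0.26 in the libraries labelled AKO, 0.14 in 4MHFW and 0.21 in 2MHF. Gria2 and Gria3 had r = 0.877 (0.648 to 0.958 within groups), and Gria3 and Grin1 had r = 0.742 (0.196 to 0.927 within groups). Gria1 ran against Gria3 (r = -0.621), although within groups the value went from -0.911 to 0.141. The level of Gria3 minus that of Gria1 was -1.73 in CreTM 9 and -1.89 in CreVE 3, against medians of -0.45 in CreTM and -0.64 in CreVE, and it was -1.63 in 4MHFW 13. Grin2c ran against Gria3 (r = -0.611) and Gria2 (r = -0.576), with the same sign within every group for both.

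The members were also set against 13 levels, those of 12 marker lists and the long-transcript level, in 130 relations tested by permutation within groups (two-sided, 100000 permutations). By Pearson's r, 36 of 130 passed an adjusted p of 0.05, 26 of these also by Spearman's rho, and 20 of the 26 had the same sign in every group. Gria3 followed the excitatory cortical neuron markers (r = 0.918, rho = 0.831, adjusted permutation p = 0.000108 and 0.000217), and r was 0.837 without CreTM 9 and CreVE 3 and 0.731 to 0.985 within the 5 groups. Gria2 (r = 0.775, 0.620 without those libraries, rho = 0.582) and Grin1 (r = 0.738, 0.609 without them, rho = 0.693) followed them too, each with an adjusted permutation p of 0.000108 for r. Gria1 ran the other way (r = -0.681, -0.581 without them, rho = -0.636, adjusted permutation p = 0.000108). The raw permutation p of each of these was 1e-05, the smallest that the permutations can give.

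**Figure D4:**
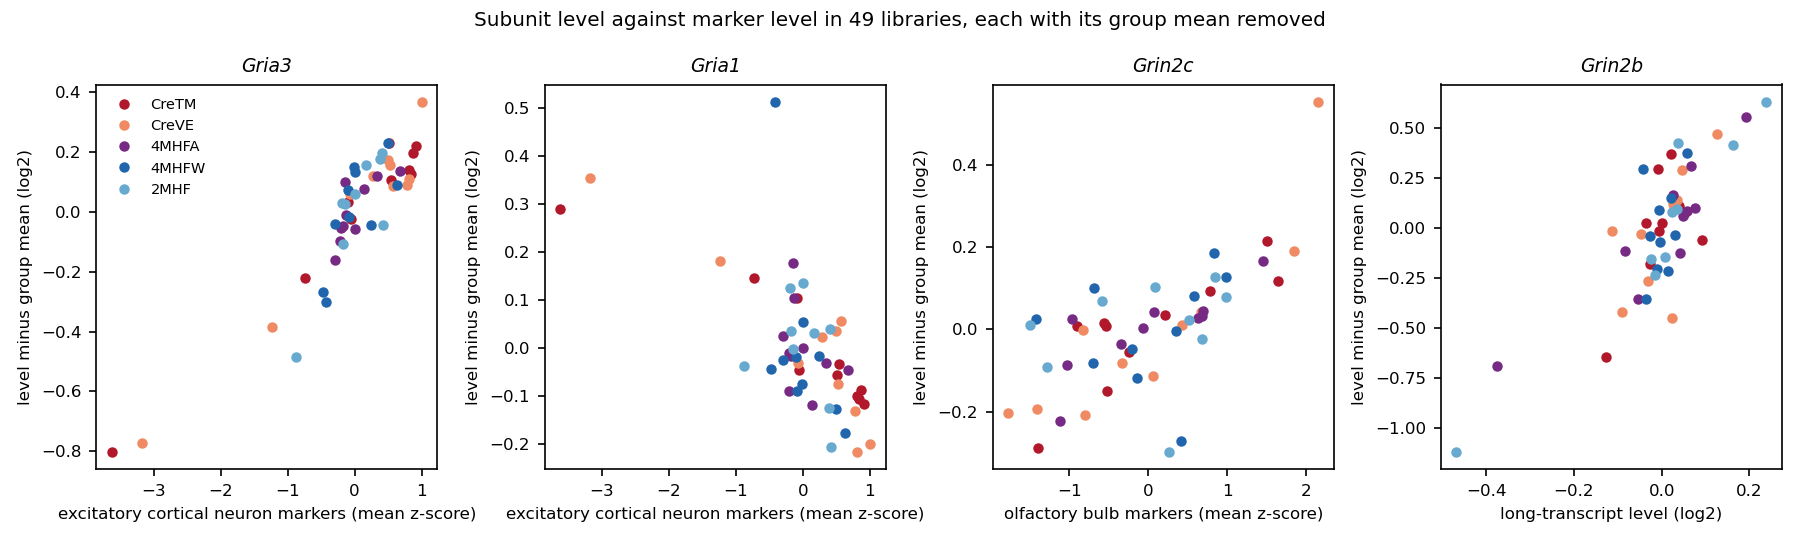
Level of 4 genes against a marker level in 49 libraries, each with its group mean removed (y axes, log2; x axes, mean z-score of markers or, for Grin2b, log2 level of long transcripts); colours are the 5 groups. Gria3 rises (r = 0.918) and Gria1 falls (r = -0.681) with excitatory cortical neuron markers, Grin2c rises with olfactory bulb markers (r = 0.659) and Grin2b with the long-transcript level (r = 0.817).

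Grin2b and Grin2a, whose longest transcripts are 24.06 and 14.63 kb, followed the long-transcript level most closely, a relation added after the data were seen. Grin2b had r = 0.817 (rho = 0.687, adjusted permutation p = 0.000108 and 0.000217), 0.719 without the 2 libraries farthest from the median and 0.367 to 0.954 within groups. Grin2a had r = 0.757 (rho = 0.491, adjusted permutation p = 0.000108 and 0.00551), 0.520 without those libraries and 0.331 to 0.966 within groups. Gria2, whose longest transcript is 10.37 kb, had r = 0.428 (adjusted permutation p = 0.0151) but rho = 0.118 (adjusted permutation p = 0.577).

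Grin2c followed the olfactory bulb markers (r = 0.659, rho = 0.670, 0.576 without CreVE 3 and CreVE 1, adjusted permutation p = 0.000108 and 0.000217), and so did Gria1 (r = 0.640, rho = 0.591, adjusted permutation p = 0.000108 and 0.00065). Summed bulb markers ran from 534 to 21250 normalised reads in CreTM, 553 to 58590 in CreVE, 955 to 19250 in the libraries labelled AKO, 982 to 18343 in 4MHFW and 562 to 9047 in 2MHF, with none at 0. Grin2d had r = 0.490 with them (rho = 0.410, adjusted permutation p = 0.00626 and 0.0311), from -0.367 in 2MHF to 0.824 in CreTM. Gria4 ran against the striatal markers (r = -0.645, rho = -0.631, adjusted permutation p = 0.000108 and 0.000433) with the same sign in all 5 groups. Grin3a followed markers of oligodendrocyte precursors (r = 0.540, rho = 0.562, adjusted permutation p = 0.000812 and 0.000975) and had r = 0.10 with excitatory cortical neuron markers.

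**Figure D5:**
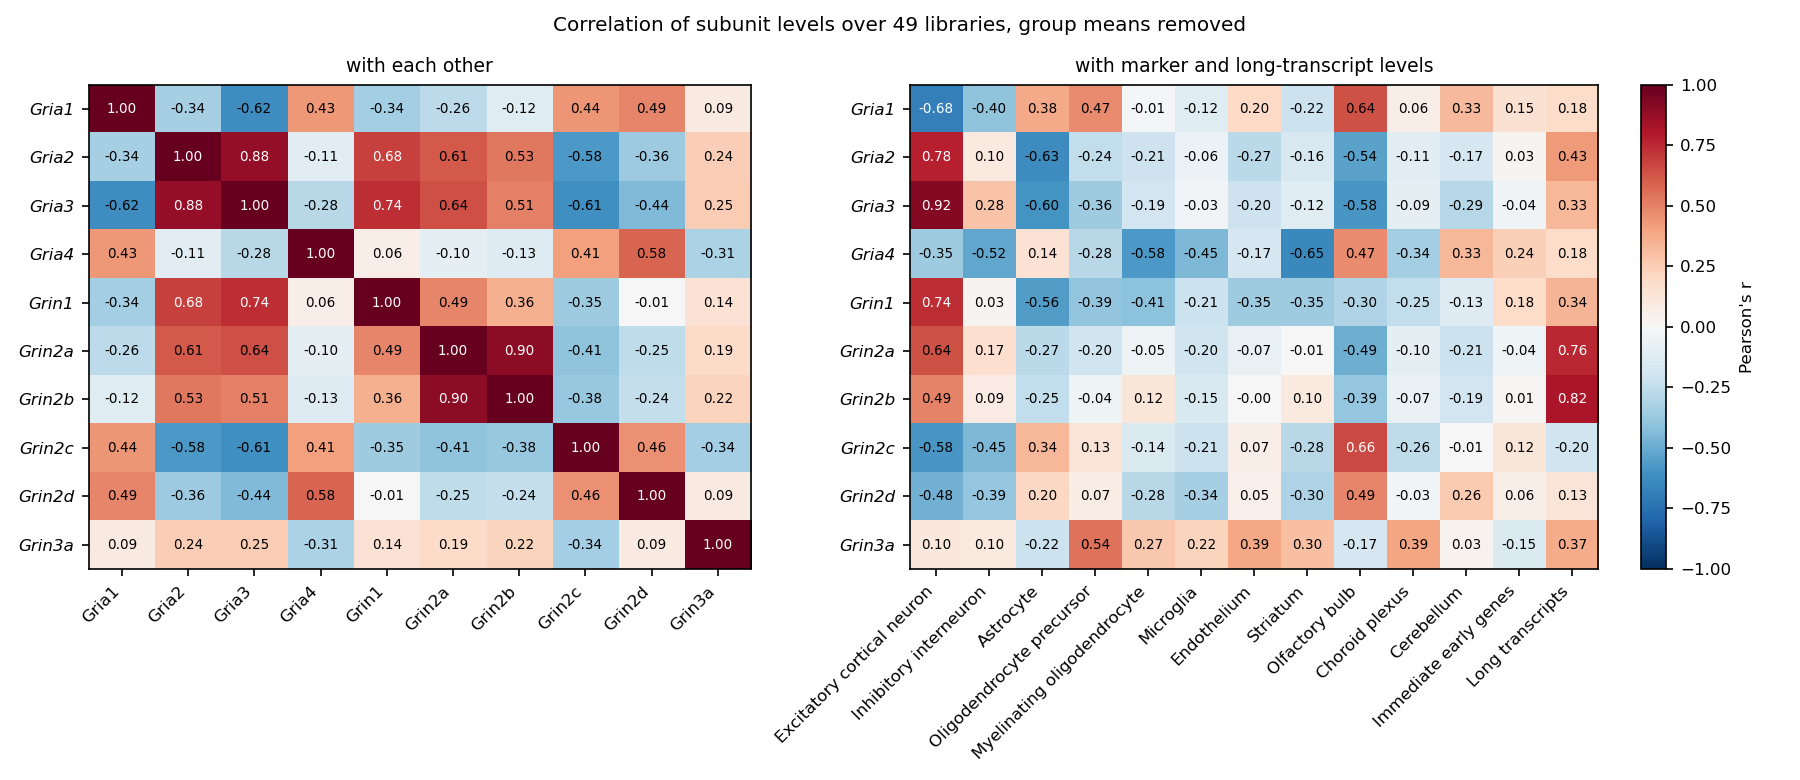
Pearson's r over 49 libraries with group means removed, among the 10 genes (left) and between the 10 genes and 12 marker list levels and the long-transcript level (right); red is positive and blue negative. Grin2a with Grin2b (0.90), Gria2 with Gria3 (0.88) and Gria3 with excitatory cortical neuron markers (0.92) are the strongest.

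The genes most like each member were sought by Pearson's r of group-centred levels over 49 libraries among 12226 genes with a mean of at least 100 normalised reads. Gria3 was most like Sv2b (a synaptic vesicle glycoprotein, r = 0.951), with Sidt1 also near the top (r = 0.949). Grin1 was most like Clip3 (r = 0.941), with Eif4g3, a translation initiation factor, also near the top (r = 0.892). Grin2a was most like Cdc42bpa (a kinase, r = 0.927), Arfgef3 (r = 0.923) and Tnr (tenascin R of the extracellular matrix, r = 0.922), and Grin2b most like Herc2 (a ubiquitin ligase, r = 0.911), Grin2a (r = 0.896) and Braf (a kinase, r = 0.893). For Gria4 these were Kcnb2 (a potassium channel, r = 0.892), Hdac9 (a histone deacetylase, r = 0.863) and Stxbp6 (r = 0.857), and for Gria2 they were Unc13b (a vesicle priming protein, r = 0.882), Gria3 (r = 0.877) and Mtmr12 (r = 0.872). Gria1 was most like Arhgap12 (r = 0.852), Cpne7 (r = 0.833) and Gpr161 (r = 0.825). The closest genes were Cacng7 (an AMPA receptor auxiliary subunit, r = 0.824), Baiap2l2 (r = 0.823) and Abtb2 (r = 0.818) for Grin2c and Nrp2 (a semaphorin receptor, r = 0.776), Pcdh19 (a protocadherin, r = 0.758) and Plxdc2 (r = 0.717) for Grin3a. Grin2d had the lowest values, with Nrg2 (a neuregulin, r = 0.735), Sema4g (a semaphorin, r = 0.722) and Morc4 (r = 0.702).

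The proteins around the receptors were read from 7 lists with 89 genes tested. In CreTM against CreVE, and in the libraries labelled AKO against 4MHFW, 0 of 89 passed by limma, and in the F test over 5 groups 21 of 89 (23.6%) passed, near the 23.2% of all genes. In CreTM against 4MHFW, 3 were higher and 3 lower, 6.74% in all, beside the 13.1% of all genes. Grik5, a kainate receptor subunit, was at 13.24 in CreTM and 13.02 in 4MHFW (0.22, adjusted p = 0.00701), Camk2d, a calcium-dependent kinase, at 12.44 in CreTM and 12.21 in 4MHFW (0.23, adjusted p = 0.0433), and Src, a tyrosine kinase of NMDA receptors, at 12.50 in CreTM and 12.36 in 4MHFW (0.14, adjusted p = 0.0467). Neto2, an auxiliary subunit of kainate receptors, fell to 11.72 in CreTM, against 12.02 in 4MHFW (-0.29, adjusted p = 0.000547), and Glul, glutamine synthetase of astrocytes, to 16.21 in CreTM, against 16.37 in 4MHFW (-0.17, adjusted p = 0.0175). Adar, an RNA editing enzyme, fell in both transgenic groups, to 13.03 in CreTM (-0.21, adjusted p = 0.000374) and 13.05 in CreVE (-0.20, adjusted p = 0.00606), against 13.25 in 4MHFW, while Adarb1 and Adarb2 did not pass. In CreVE, Grik2, a kainate receptor subunit, was the other of 2 that passed (2.25%, beside 6.17% of all genes), at 10.71 in CreVE and 10.88 in 4MHFW (-0.17, adjusted p = 0.0194).

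In 4MHFW against 2MHF, 2 of the 89 passed as higher and 6 as lower, 8.99% in all, beside the 8.69% of all genes. Of 19 AMPA receptor auxiliary and assembly proteins, 2 were lower, both of them members of the stargazin family that traffic AMPA receptors: Cacng2, at 11.40 in 4MHFW and 11.68 in 2MHF (-0.28, adjusted p = 0.0247), and Cacng3, at 12.02 in 4MHFW and 12.26 in 2MHF (-0.23, adjusted p = 0.0368). Of 13 genes tested in the kainate and delta list, Grik5 (-0.25, adjusted p = 0.00558) and Grik4 (-0.34, adjusted p = 0.00894) were lower in 4MHFW. Of 11 genes of glutamate transport, the astrocytic Glul (0.16, adjusted p = 0.0106) and Slc1a3 (0.15, adjusted p = 0.0459) were higher in 4MHFW, and the neuronal transporters Slc1a1 (-0.13, adjusted p = 0.0267) and Slc17a7 (-0.20, adjusted p = 0.0492) lower. No metabotropic receptor (7 tested) or postsynaptic scaffold gene (25 tested) passed in any of the 5 comparisons. Among the metabotropic receptors, Grm5 differed by -0.16 in CreTM against 4MHFW (adjusted p = 0.0578). The smallest p among the scaffold genes were those of Nptx2, a pentraxin that clusters AMPA receptors, at 11.51 in CreTM and 11.91 in CreVE (-0.39, adjusted p = 0.9998), and of Dlg4, the scaffold PSD-95, in 4MHFW against 2MHF (-0.12, adjusted p = 0.0637). In the F test, 6 of 25 scaffold genes passed. Nptx2 (adjusted p = 5.6e-05) had means of 11.51 in CreTM, 11.91 in CreVE, 11.46 in the libraries labelled AKO, 11.77 in 4MHFW and 12.07 in 2MHF.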

How the data were processed

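Frontal cortex RNA was made into libraries with the Illumina TruSeq Stranded mRNA kit, per the labels' protocols. The authors' deposited table holds log2 values of 24495 genes in 50 value columns, of which 1 matched no sample and was not used in any step. The sources used here name no aligner, counter, genome build or normalisation. Taken back from log2 and less the 1 added, 99.92% to 100% of the deposited values up to 200 reads lay within 0.1 of whole multiples of 1 step per library, so reads could be recovered, and 7 genes for which this failed were left out. Symbols changed to dates (27) were restored from gene IDs. Positions and transcript lengths came from GENCODE M21 (GRCm38) and 250 bases before each start from RefSeq (GRCm38.p6), which held 5 of the 10 members. Protein sequences were not used here.

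Libraries were grouped by title. Each comparison was tested with limma 3.58.1 in R 4.3.3 on the deposited values of the groups compared alone, with an intensity trend and robust shrinkage, two-sided, with Benjamini-Hochberg adjustment over all genes tested and a threshold of 0.05. A moderated F test asked for any difference among the 5 groups. A gene entered a test with at least 10 reads, scaled to the median library, in a number of libraries equal to the smaller group's size, and 15 reads over all. At 29.17 M to 75.65 M reads per library (M, 1e+06), counting error was small beside the spread between libraries for the members. The test was checked on simulated reads. Marker levels are means of z-scores. Correlations used group-centred values and permutations within groups (Python 3.11.15, scipy 1.17.1).

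The members and lists were chosen with earlier results of these data known. Named outside the 10 members were Iapp, up to 5 members of each pathway list past the threshold by smallest p (where none passed, the 2 with the smallest p), and the 3 genes most like each member. Of the genes past the F test alone, Nptx2 is given. Some genes that this rule names are not reported here. Alternatives were another scaling, limma-voom, other filters and pseudocounts, a joint model, marker covariates, parts of 4MHFW, a replicate block, leaving out libraries and other gene lengths. Same-numbered libraries did not deviate together (r from -0.401 to 0.195), so the numbers were not taken to pair samples.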

Additional observations from a re-analysis of the deposited data

Results flagged for a closer look

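A level was marked where 1 library lay far from the others of its group, by Dixon's test of the gap over the range, in 50 sets of values (10 genes in 5 groups), of which 9 were marked; chance marks about 1 in 20 such sets. Library CreTM 9 was low in Gria2 (14.41, the others 14.80 to 14.98), in Gria3 (12.90, the others 13.48 to 13.93) and in Grin2a (8.80, the others 9.74 to 10.72). This library was also the lowest of all 49 in excitatory cortical neuron markers. Library 2MHF 37 was low in Gria3 (13.35, the others 13.72 to 14.03), Grin2a (8.61, the others 10.09 to 10.64) and Grin2b (9.99, the others 10.87 to 11.74), and it had the lowest long-transcript level. Library 4MHFA 6, next lowest in that level, was low in Grin2a (8.60, the others 9.61 to 10.30). Library CreVE 3 was high in Grin2c (11.99, the others 11.23 to 11.63) and had the highest level of olfactory bulb markers. Library 4MHFW 13 was high in Gria1 (14.94, the others 14.25 to 14.48). What sets these libraries apart was not tested.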

How the results depend on the processing

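Leaving out 1 library at a time gave 62 to 206 genes called in the libraries labelled AKO against 4MHFW (120 with all), 651 to 1493 in CreVE against 4MHFW (939), 1470 to 3175 in CreTM against 4MHFW (1996) and 769 to 2847 in 4MHFW against 2MHF (1324), and 0 of 10 members in the first 2 of these, 1 to 3 in CreTM against 4MHFW and 0 to 3 in 4MHFW against 2MHF. In CreTM against CreVE 0 genes were called each time. Genes called in the libraries labelled AKO were 50 in 1 model of all 49 libraries, 226 with olfactory bulb and striatum covariates and 78 without 4MHFA 6. In CreVE against 4MHFW they were 162 against 4MHFW 11 to 15 alone, 396 against 21 to 25 alone and 2748 without CreVE 1 and CreVE 3, and 1 member was called with the marker covariates (Grin2d, adjusted p = 0.0495) and 1 without those libraries (Grin3a). In CreTM against 4MHFW, 675 and 1242 genes and 0 members were called against the 2 parts of 4MHFW, and 3175 genes without CreTM 9. There, 1 member (Grin2d) was called with CPM scaling of the reads and in the joint model, and 4 with the marker covariates. In 4MHFW against 2MHF, 848 genes were called in the joint model, 228 with the marker covariates and 36 with 4MHFW 21 to 25 alone, 2138 genes and 3 members with the long-transcript covariate, and 2847 genes and 3 members without 2MHF 37. In the F test, 1 member (Grin2d) was called with the marker covariates, and 5820 genes and 4 members without the 3 libraries low in excitatory neuron markers. The long-transcript covariate, the coding length and leaving out the libraries that stood apart were chosen after seeing the data. Counts under the other alternatives run stayed within 1.5 times of those with the main settings. The cause of these changes was not tested.

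With the title number as a replicate block, which only groups sharing numbers allow, 12 genes and 0 members were called in the libraries labelled AKO against 4MHFW (5 shared numbers), and 303 genes and 0 members in CreTM against 4MHFW (2 shared numbers, Grin2d difference 0.03, adjusted p = 0.966). No library was most like the one with its own number.

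The 9 member differences with an unadjusted p under 0.05 kept their sign in every alternative run. Of the other 41, 24 changed sign in at least 1 alternative and 16 in at least 1 fit that left out a library. The largest of these was 0.192 in size with all libraries, and 4 of the 41 passed the threshold in at least 1 alternative.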
